A study of Homo sapiens with 5 samples.

Results

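Congenital hypogonadotropic hypogonadism is a disorder of puberty and fertility in which the gonadotropin-releasing hormone (GnRH) neurons fail to form, to reach the hypothalamus or to work, and it includes Kallmann syndrome, in which the sense of smell is also lost or reduced. A list of 36 genes reported in this disorder, in related syndromes or in disorders of the timing of puberty was followed through the differentiation of human stem cells into GnRH neurons. The members were listed by gene symbol, with earlier results of these data known. All 36 were found exactly once, with the same Ensembl identifier, among the 33538 genes listed for days 22 to 26 and among the 36601 listed for days 0 to 10. They were also followed in GNRH1-high cells, defined as cells with at least 3000 UMIs of GNRH1 per 1000000 UMIs, which were 345 cells against 8762 other cells at D24 and 999 against 10057 at D26.

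GnRH neurons of the embryo are born in the nasal placode and migrate along olfactory and vomeronasal axons into the forebrain, where they later drive the pituitary to release gonadotropins. The known disease genes therefore act at different steps. ANOS1, NDNF, DCC and FLRT3 act in adhesion or axon guidance, HS6ST1 and AXL in growth factor signalling, FEZF1 and CHD7 in transcription and chromatin, and KISS1R, TAC3 and GNRHR in the hormonal control of the finished axis.

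The cells were of WA09, an established human embryonic stem cell line, and the labels name no introduced allele. The paper used a GNRH1-tdTomato reporter line for flow cytometry and does not state whether the sequenced cells carried the reporter. Single cells were sequenced with 10x Genomics droplets in 8 conditions, and the table of each condition is called a library here. D0 was the undifferentiated line. D5_dSMADi and D10_dSMADi were taken at days 5 and 10 of dual SMAD inhibition (dSMADi), in which dorsomorphin and SB431542 block BMP and TGF-beta signalling to make neural progenitors, and D5_XAV939 and D10_XAV939 had in addition 10 µM XAV939, a tankyrase inhibitor that lowers Wnt signalling. These 5 conditions were tagged and pooled in 1 droplet run, and were divided by tag afterwards. D22, D24 and D26 were taken from the protocol without XAV939, after dSMADi, then the growth factor FGF8, and then the Notch inhibitor DAPT, which lets progenitors become neurons. Cells of the later days had been frozen and thawed during the FGF8 phase and were dissociated with papain, while those of days 0 to 10 were dissociated with Accutase. Each condition is 1 library of 1 cell line, so no difference has a replicate check, no p-value was computed, and values of days 0 to 10 are set beside those of days 22 to 26 without a comparison.

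Depth ranged from 58073098 to 130440502 UMIs (unique molecular identifiers, which count RNA molecules) per library over 1009 to 11056 kept cells, with median cells of 7180 to 69455 UMIs. A level is the number of UMIs of a gene summed over a group of cells, per 1000000 UMIs of that group (CPM), and a summed level does not tell fewer cells with the gene from less RNA per cell. Intervals are at 95% and cover counting error only. Ratios are given as log2 of CPM over CPM, and "higher" or "lower" in counts means at least 2-fold among genes whose mean CPM in the compared groups was at least 5. Most of the marker sums given here fitted the labelled stages. The 5 pluripotency genes summed to 2715 CPM at D0 and 514 at D10_dSMADi, where the highest gene held 375 CPM and the lowest 0.914. The 5 dividing-cell genes summed to 1189 CPM at D22 and 56.3 at D24. The 5 neural progenitor genes summed to 646 CPM at D22, 96.3 at D24 and, higher again, 223 at D26. The sum of 5 neuron genes was 2154 CPM at D22 and 12370.2 and 12380.4 at D24 and D26. In the pooled run the tag of each condition held 95.1 to 95.6% of tag UMIs. Since barcodes had been assigned to conditions by tag, this is no check on the labels. Pairs of libraries shared 0 to 37 barcodes.

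CCDC141 and FEZF1 are shown first by sequence, because FEZF1 was lower and CCDC141 higher in GNRH1-high than in all other cells of D24 and D26, which for FEZF1 on both days and for CCDC141 at D24 did not hold against DLX-high cells, where CCDC141 at D26 was within 2-fold, and they were picked after their values were seen. The windows are the 250 bases before the annotated start, from RefSeq on GRCh38.p14, written 5′ to 3′ along the minus strand on which both genes lie, at chr2:179050138-179050387 and chr7:122304751-122305000. Capitals mark TAATT or its reverse complement AATTA, the core of many homeodomain binding sites.
CCDC141: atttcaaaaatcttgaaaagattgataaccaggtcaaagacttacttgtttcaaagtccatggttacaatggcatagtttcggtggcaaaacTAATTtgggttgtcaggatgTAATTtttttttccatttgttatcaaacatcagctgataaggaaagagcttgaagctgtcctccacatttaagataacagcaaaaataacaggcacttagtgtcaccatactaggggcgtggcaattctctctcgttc
FEZF1: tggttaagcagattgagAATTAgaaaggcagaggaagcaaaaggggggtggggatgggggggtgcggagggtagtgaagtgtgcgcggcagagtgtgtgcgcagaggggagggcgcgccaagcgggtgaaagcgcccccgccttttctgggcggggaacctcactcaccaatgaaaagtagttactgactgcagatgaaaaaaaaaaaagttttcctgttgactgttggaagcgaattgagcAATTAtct
The CCDC141 window has 37.2% G and C and 3 CpG dinucleotides, and the FEZF1 window 52.8% and 11. The FEZF1 window stands before its RefSeq start and lies inside the wider span that GENCODE gives the gene. The median of 35116 RefSeq windows is 58% and 11 CpG dinucleotides. Each of the 2 windows holds 2 matches. A second FEZF1 window, at chr7:122304512-122304761, overlaps the one shown, with 53.6% G and C, 9 CpG dinucleotides and 1 match. At least 1 match stands in 23.1% of all windows and 2 or more in 9.25%. The 31 members in the table have 46 windows, of which 13 (28.3%) hold at least 1 match and 6 (13%) hold 2 or more. Windows of the same gene can overlap, as those of FEZF1 and PNPLA6 do, so 1 match can be counted more than once. A match is a run of letters and not evidence that a factor binds. NDNF, NTN1, CHD7, STUB1 and KISS1R have no window in the table used.

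Of the 36 members, 25 reached 5 CPM in at least 1 library or GNRH1-high group and 13 were at or above 5 CPM in all 8 libraries. Another 7 stayed under 1 CPM in every library. NTN1 is among the 25 only through a GNRH1-high group, at 5.39 CPM. From D0 to D5_dSMADi, 18 members could be compared, of which 4 (22.2%) were higher, beside 8.08% of 10219 genes, and 3 (16.7%) were lower, beside 16.4%. From D5_dSMADi to D10_dSMADi, 1 of 19 members was higher (background 5.09%) and 1 lower (background 1.42%). With XAV939, from D5 to D10, 1 of 20 was higher (background 4.11%) and 2 were lower (background 1.31%). From D22 to D24, 0 of 19 were higher (background 9.7%) and 5 (26.3%) were lower (background 12.3%). From D24 to D26, 1 of 19 was higher (background 7.34%) and 2 were lower (background 2.04%). The whole transcriptome moved against the totals by a log2 median, over genes of at least 50 CPM, of -0.19 from D0 to D5_dSMADi, 0.13 and 0.14 from D5 to D10 without and with XAV939, and 0.19 from D24 to D26. Values relative to these medians are given beside the members called. Over all genes compared, the medians of the same comparisons were -0.11, 0.19, 0.16 and 0.34, and values relative to those are not given. Among members called, FLRT3 from D0 to D5_dSMADi, LEPR from D5_XAV939 to D10_XAV939, ANOS1 from D22 to D24 and KISS1R from D24 to D26 reached 5 CPM in only 1 of the libraries compared. D5_dSMADi and D24 each enter 2 of these steps.

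**Figure D1:**
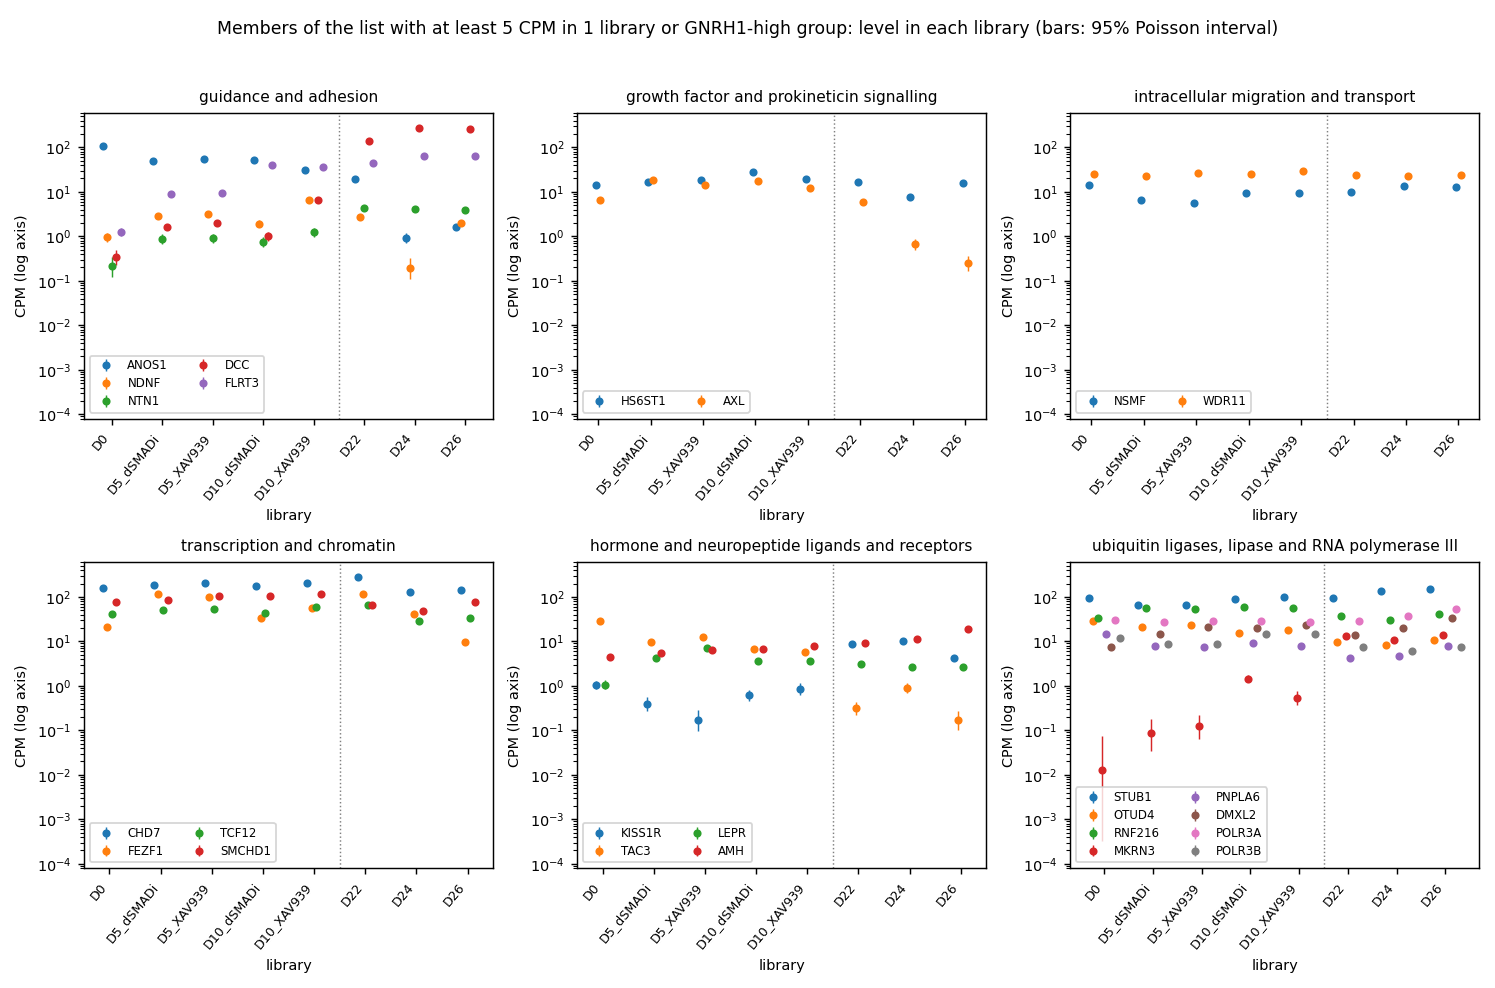
Level of each of the 25 members that reached 5 CPM in a library or GNRH1-high group, in CPM on a log axis, in the 8 libraries, with 1 panel for each role group and bars for the 95% Poisson interval. The dotted line separates the pooled run from the later libraries. DCC lies at 0.342 CPM at D0 and at 277 CPM at D24, and ANOS1 at 108 CPM at D0 and 0.927 CPM at D24.

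Among the genes of adhesion and guidance, FLRT3 was higher at each early step, and ANOS1 was lower from D0 to D5_dSMADi and again from D22 to D24. ANOS1 (chrX:8528874-8732137, minus strand, by GENCODE 44 on GRCh38, as are all positions of genes here) encodes anosmin-1, the secreted matrix protein whose loss causes X-linked Kallmann syndrome. It was at 108 CPM at D0, 50.2 at D5_dSMADi, 55.2 at D5_XAV939, 52.2 at D10_dSMADi, 31.5 at D10_XAV939, 19.5 at D22, 0.927 at D24 and 1.61 at D26. It was lower at D5_dSMADi than at D0, with a log2 ratio of -1.11 (95% interval from -1.17 to -1.06), or -0.92 relative to the median gene of at least 50 CPM, which is within 2-fold. That median was -0.19, beside -0.11 over all genes compared, so this reading depends on the median used. From D22 to D24 it was lower, at a log2 ratio of -4.40 (95% interval from -4.77 to -4.04), and the share of cells with an ANOS1 UMI went from 18.2% to 0.648%, or from 2.50% to 0.176% with each cell thinned to 1500 UMIs. Within the pooled run ANOS1 was highest in the undifferentiated cells, and within the later libraries at D22.

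DCC (chr18:52340197-53535899, plus strand), the netrin receptor that steers growing axons, was at 0.342 CPM at D0, 1.63 at D5_dSMADi, 1.95 at D5_XAV939, 1.003 at D10_dSMADi, 6.49 at D10_XAV939, 141 at D22, 277 at D24 and 261 at D26. Its log2 ratio from D22 to D24 was 0.97 (95% interval from 0.94 to 1.002), just under the 2-fold line, and at 1.00 relative to the median gene. A DCC UMI was found in 58.8%, 77.2% and 80.4% of cells at D22, D24 and D26. The ligand NTN1, netrin-1, was at 0.211 CPM at D0, 0.878 at D5_dSMADi, 0.899 at D5_XAV939, 0.749 at D10_dSMADi, 1.22 at D10_XAV939, 4.29 at D22, 4.11 at D24 and 3.91 at D26. FLRT3 (chr20:14322985-14337614, minus strand), a membrane protein that binds FGF receptors and teneurins, was at 1.26 CPM at D0, 8.88 at D5_dSMADi, 9.64 at D5_XAV939, 40.4 at D10_dSMADi, 36.1 at D10_XAV939, 44.3 at D22, 64.1 at D24 and 64.8 at D26. It was higher at each early step, by log2 2.81 (95% interval from 2.50 to 3.14) from D0 to D5_dSMADi, 2.18 (95% interval from 2.07 to 2.30) from D5_dSMADi to D10_dSMADi and 1.90 (95% interval from 1.79 to 2.02) from D5_XAV939 to D10_XAV939, or 3.00, 2.05 and 1.76 relative to the median gene. FLRT3 lies within MACROD2 on the other strand. NDNF, a secreted neurotrophic factor, was at 0.961 CPM at D0, 2.84 at D5_dSMADi, 3.25 at D5_XAV939, 1.94 at D10_dSMADi, 6.46 at D10_XAV939, 2.66 at D22, 0.1996 at D24 and 2.01 at D26. SEMA3E, a repellent guidance cue, did not exceed 2.73 CPM at D0 (207 UMIs).

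In the group of growth factor and prokineticin signalling, HS6ST1 (chr2:128236716-128318868, minus strand), which sulfates the heparan chains that FGF receptors and anosmin-1 need, was at 14.0 CPM at D0, 16.8 at D5_dSMADi, 18.9 at D5_XAV939, 27.7 at D10_dSMADi, 19.96 at D10_XAV939, 17.1 at D22, 7.797 at D24 and 15.8 at D26. It was lower at D24 than at D22, at a log2 ratio of -1.13 (95% interval from -1.27 to -0.996), and higher at D26 than at D24, at 1.02 (95% interval from 0.88 to 1.16), which is 0.82 relative to the median gene and thus under 2-fold. AXL, a receptor tyrosine kinase that aids survival and migration, was at 6.63 CPM at D0, 18.7 at D5_dSMADi, 14.0 at D5_XAV939, 17.2 at D10_dSMADi, 12.4 at D10_XAV939, 5.87 at D22, 0.670 at D24 and 0.251 at D26. Its log2 ratio from D0 to D5_dSMADi was 1.497 (95% interval from 1.35 to 1.65), or 1.68 relative to the median gene. From D24 on AXL was below the limit for a comparison, with 766 UMIs at D22 against 47 and 25 at D24 and D26. KLB, the co-receptor of FGF21, did not exceed 0.546 CPM at D10_dSMADi (43 UMIs). The ligand PROK2, which guides olfactory and GnRH neuron migration, was highest at 2.09 CPM at D0 (159 UMIs), and its receptor gene PROKR2 had 4 UMIs at D0, 2 at D22 and 0 in the other 6 libraries, while PROK2 had 8, 1 and 1 UMIs at D22, D24 and D26.

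The genes of intracellular migration and transport differed from each other. WDR11, which acts in Hedgehog signalling and vesicle traffic, kept within 22.6 to 29.8 CPM over the 8 libraries, at 24.6 CPM at D0, 22.6 at D5_dSMADi, 26.6 at D5_XAV939, 25.5 at D10_dSMADi, 29.8 at D10_XAV939, 23.99 at D22, 23.2 at D24 and 24.4 at D26. NSMF, a protein that carries signals from synapse to nucleus, was at 14.5 CPM at D0, 6.49 at D5_dSMADi, 5.60 at D5_XAV939, 9.23 at D10_dSMADi, 9.64 at D10_XAV939, 9.74 at D22, 13.9 at D24 and 12.8 at D26. Its log2 ratio from D0 to D5_dSMADi was -1.16 (95% interval from -1.32 to -1.01), or -0.98 relative to the median gene of at least 50 CPM, which is within 2-fold. That median was -0.19, beside -0.11 over all genes compared, so this reading depends on the median used. CCDC141 (chr2:178829757-179050137, minus strand), a centrosome-associated protein needed for GnRH neuron migration, was below 5 CPM everywhere, at 3.23 CPM at D0, 0.138 at D5_dSMADi, 0.150 at D5_XAV939, 0.0127 at D10_dSMADi, 0.0344 at D10_XAV939, 0.406 at D22, 0.356 at D24 and 0.543 at D26. Its UMI counts were 245, 11, 13, 1, 2, 53, 25 and 54 in the same order. CCDC141 was thus at 1 and 2 UMIs at D10 and is described further with the GNRH1-high cells, where it was chosen after its values were seen.

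Among the genes of transcription and chromatin, FEZF1 was the member called in the most steps. FEZF1 (chr7:122301303-122310691, minus strand) is a zinc-finger repressor of the early forebrain and the olfactory system, without which olfactory axons and GnRH neurons do not enter the brain. It was at 20.8 CPM at D0, 115 at D5_dSMADi, 99.0 at D5_XAV939, 33.1 at D10_dSMADi, 56.7 at D10_XAV939, 117 at D22, 40.9 at D24 and 9.45 at D26. From D0 to D5_dSMADi it was higher, at a log2 ratio of 2.47 (95% interval from 2.39 to 2.55), and from D5_dSMADi to D10_dSMADi lower, at -1.80 (95% interval from -1.86 to -1.74), or 2.66 and -1.93 relative to the median gene. Within the later libraries it was highest at D22, with a log2 ratio of -1.51 (95% interval from -1.57 to -1.45) from D22 to D24 and -2.11 (95% interval from -2.22 to -2.01) from D24 to D26, the latter -2.31 relative to the median gene. The antisense gene FEZF1-AS1 overlaps FEZF1 on the other strand.

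CHD7, the chromatin remodeller of CHARGE syndrome, was high in all libraries, at 160.4 CPM at D0, 189 at D5_dSMADi, 207 at D5_XAV939, 172 at D10_dSMADi, 201 at D10_XAV939, 285 at D22, 130.1 at D24 and 145 at D26. Its log2 ratio from D22 to D24 was -1.13 (95% interval from -1.16 to -1.10). TCF12, a bHLH partner of proneural factors, was at 42.2 CPM at D0, 49.6 at D5_dSMADi, 54.5 at D5_XAV939, 43.4 at D10_dSMADi, 60.6 at D10_XAV939, 65.3 at D22, 28.1 at D24 and 34.3 at D26, and was also lower at D24 than at D22, at -1.21 (95% interval from -1.29 to -1.14). SMCHD1, which keeps silenced chromatin closed, was at 78.1 CPM at D0, 83.8 at D5_dSMADi, 104 at D5_XAV939, 104 at D10_dSMADi, 116 at D10_XAV939, 64.7 at D22, 49.3 at D24 and 78.0 at D26 and did not pass 2-fold in any of the 5 steps in time. NR0B1, the nuclear receptor DAX1 of adrenal and gonadotrope cells, had at most 2 UMIs in any library. Of the 4 members of this group that could be compared, 3 were therefore lower from D22 to D24, beside the 12.3% of all genes given above.

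Of the 9 hormone and neuropeptide ligands and receptors, 4 reached 5 CPM. KISS1R (chr19:917287-921005, plus strand), the kisspeptin receptor through which GnRH secretion is driven, was at 1.05 CPM at D0, 0.402 at D5_dSMADi, 0.173 at D5_XAV939, 0.622 at D10_dSMADi, 0.861 at D10_XAV939, 8.95 at D22, 10.1 at D24 and 4.31 at D26. It was lower at D26 than at D24, at a log2 ratio of -1.23 (95% interval from -1.41 to -1.06), or -1.43 relative to the median gene. Its ligand KISS1 had 46 UMIs at D0 and fewer in every other library. TAC3, the precursor of neurokinin B, was at 28.6 CPM at D0, 9.86 at D5_dSMADi, 12.8 at D5_XAV939, 6.602 at D10_dSMADi, 5.89 at D10_XAV939, 0.314 at D22, 0.884 at D24 and 0.171 at D26. It was lower at D5_dSMADi than at D0, at a log2 ratio of -1.53 (95% interval from -1.65 to -1.42), and lower at D10_XAV939 than at D5_XAV939, at -1.12 (95% interval from -1.30 to -0.95), or -1.35 and -1.27 relative to the median gene. TAC3 overlaps MYO1A on the same strand, which had at most 5 UMIs in any library. TACR3, the receptor of neurokinin B, was highest at 2.23 CPM at D0 (169 UMIs) and had 26 UMIs or fewer in each other library. Within the pooled run both TAC3 and TACR3 were therefore highest in the undifferentiated cells.

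LEPR, the leptin receptor, was at 1.07 CPM at D0, 4.20 at D5_dSMADi, 7.16 at D5_XAV939, 3.63 at D10_dSMADi, 3.56 at D10_XAV939, 3.097 at D22, 2.67 at D24 and 2.64 at D26, with a log2 ratio from D5_XAV939 to D10_XAV939 of -1.01 (95% interval from -1.24 to -0.78), or -1.15 relative to the median gene. This ratio stands at the 2-fold line and was past it in 6 of 9 alternatives, the weakest being -0.58 in thinned cells. The other limits on CPM and the stricter cell filter cannot move this ratio, so that they repeat the main value and are among the 6. LEPR overlaps LEPROT on the same strand, and LEPROT had a log2 ratio of -0.02 in that comparison. AMH, the anti-Müllerian hormone, was at 4.44 CPM at D0, 5.38 at D5_dSMADi, 6.25 at D5_XAV939, 6.83 at D10_dSMADi, 7.77 at D10_XAV939, 9.36 at D22, 11.1 at D24 and 19.0 at D26 and did not pass 2-fold in any step in which it could be compared. The receptor AMHR2 did not exceed 0.966 CPM at D5_dSMADi (77 UMIs). LEP had at most 13 UMIs and GNRHR at most 9 UMIs in any library. GNRHR, the receptor of the hormone itself, belongs to pituitary gonadotropes, and the 5 pituitary genes checked summed to 0.0383 to 0.143 CPM in D22 to D26, with 2 to 4 of them at 0.

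The last group holds ubiquitin ligases and a deubiquitinase, a phospholipase, a vesicle protein and subunits of RNA polymerase III. Several of them, RNF216 among them, are known from disorders that join hypogonadism with ataxia or other neurological signs. STUB1, a chaperone-linked ubiquitin ligase, was at 95.6 CPM at D0, 64.6 at D5_dSMADi, 64.3 at D5_XAV939, 88.9 at D10_dSMADi, 97.0 at D10_XAV939, 96.1 at D22, 134 at D24 and 147 at D26. RNF216, another ubiquitin ligase, was at 34.0 CPM at D0, 57.6 at D5_dSMADi, 54.1 at D5_XAV939, 59.5 at D10_dSMADi, 57.4 at D10_XAV939, 37.1 at D22, 30.5 at D24 and 42.3 at D26. OTUD4, a deubiquitinase, was at 28.6 CPM at D0, 21.5 at D5_dSMADi, 23.1 at D5_XAV939, 15.1 at D10_dSMADi, 18.3 at D10_XAV939, 9.81 at D22, 8.27 at D24 and 10.7 at D26. None of these 3 passed 2-fold in a step in time.

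MKRN3, a maternally imprinted ligase that holds back puberty, was at 0.0132 CPM at D0, 0.0878 at D5_dSMADi, 0.127 at D5_XAV939, 1.46 at D10_dSMADi, 0.534 at D10_XAV939, 13.5 at D22, 10.8 at D24 and 13.8 at D26. It had 1 UMI at D0 and 1760 UMIs at D22, which are libraries of different runs and are not compared. PNPLA6, a phospholipase of nerve cells, was at 14.4 CPM at D0, 8.01 at D5_dSMADi, 7.33 at D5_XAV939, 8.99 at D10_dSMADi, 7.78 at D10_XAV939, 4.25 at D22, 4.73 at D24 and 7.76 at D26. DMXL2, a synaptic vesicle and endosome protein, was at 7.36 CPM at D0, 14.8 at D5_dSMADi, 21.5 at D5_XAV939, 19.98 at D10_dSMADi, 23.99 at D10_XAV939, 13.8 at D22, 20.4 at D24 and 33.5 at D26 and was higher at D5_dSMADi than at D0 by log2 1.01 (95% interval from 0.87 to 1.16), or 1.1995 relative to the median gene.

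POLR3A, the largest subunit of RNA polymerase III, was at 29.6 CPM at D0, 26.9 at D5_dSMADi, 28.7 at D5_XAV939, 29.3 at D10_dSMADi, 27.5 at D10_XAV939, 28.3 at D22, 38.1 at D24 and 54.1 at D26. Its partner subunit, POLR3B, was at 11.8 CPM at D0, 8.96 at D5_dSMADi, 8.97 at D5_XAV939, 14.7 at D10_dSMADi, 14.8 at D10_XAV939, 7.41 at D22, 6.23 at D24 and 7.42 at D26. From D24 to D26, 0 of the 8 members of this group passed 2-fold, beside the 7.34% higher and 2.04% lower of all genes.

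Within single libraries the levels of several members differed between dividing cells and neurons, in classes chosen after the values were seen. Dividing cells were those with at least 500 CPM of 5 dividing-cell genes (MKI67, TOP2A, CCNB1, UBE2C and NUSAP1), and neuron-list-high cells were other cells with at least 1000 CPM at D10, or 2000 CPM at D22, of STMN2, DCX, MAP2, GAP43 and SNAP25. There were 17 neuron-list-high cells at D10_dSMADi (0.704% of cells), 60 at D10_XAV939 (2.77%) and 2697 at D22 (28.3%). These are ranges and not cell types. At D22, 1094 cells lay from 20% below to 25% above the neuron limit.

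Most DCC UMIs of D10 lay in the neuron-list-high cells, which held 62.0% (interval 50.4 to 72.7%) of its UMIs at D10_dSMADi and 61.0% (interval 55.9 to 66.0%) at D10_XAV939. Its level in them was 139 CPM (interval 103 to 184) and 171 CPM (interval 149.7 to 195), against 0.168 and 2.18 CPM in cells that were neither dividing nor neuron-list-high. At D22 DCC was at 57.1 CPM in dividing cells, 91.3 in the remaining cells and 324 in neuron-list-high cells. The neuron-list-high cells were therefore highest in DCC in all 3 libraries.

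FEZF1 in the 60 neuron-list-high cells of D10_XAV939 was at 296 CPM (interval 268 to 327), against 44.8 in dividing and 63.2 in the remaining cells. In the 17 such cells of D10_dSMADi it was at 45.5 CPM (interval 26.01 to 73.9), beside 37.0 CPM in the remaining cells. At D22 the 3 classes were closer, at 109, 113 and 132 CPM. Free RNA in the droplets was not measured, so these levels do not show that cells of each class expressed FEZF1.

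ANOS1 had the other order, with 22.2 CPM in dividing cells of D22, 25.03 in the remaining cells and 6.57 in neuron-list-high cells. TAC3 was at 58.0 CPM (interval 45.9 to 72.4) in the neuron-list-high cells of D10_XAV939 and at 4.27 and 5.39 in the dividing and remaining cells. TCF12 was at 165 and 104 CPM in the neuron-list-high cells of D10_dSMADi and D10_XAV939, above the 43.9 and 58.7 CPM of dividing cells, whereas at D22 it was at 58.9 against 62.2. KISS1R at D22 was at 13.1 CPM in dividing cells, 12.6 in neuron-list-high cells and 4.28 in the remaining cells.

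**Figure D2:**
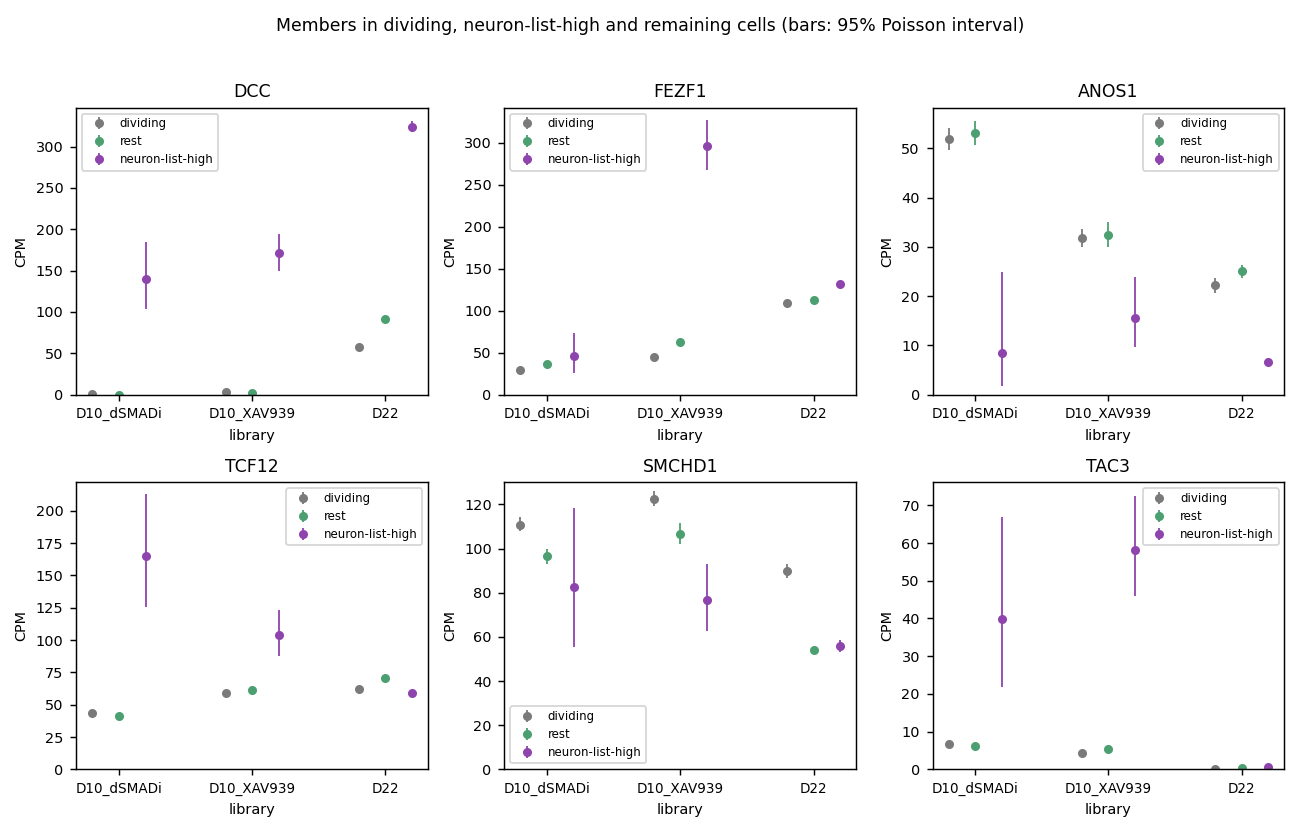
Level in CPM, on linear axes, of 6 members in dividing, remaining and neuron-list-high cells of D10_dSMADi, D10_XAV939 and D22, with bars for the 95% Poisson interval. DCC and TAC3 stand highest in the neuron-list-high cells of D10, ANOS1 stands lowest there, and FEZF1 reaches 296 CPM in the 60 such cells of D10_XAV939.

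The comparison of XAV939 with dSMADi alone asked what Wnt inhibition in the first phase changes. At D5, 0 of 20 members passed 2-fold in either direction, beside 0.622% of 9808 genes higher and 0.581% lower. At D10, 0 of 19 passed, beside 1.32% of 10303 genes higher and 1.46% lower. The log2 ratios ran from -0.42 to 0.77 at D5 and from -0.73 to 0.78 at D10.

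Differences under 2-fold were often larger than counting error, in the members as in all genes. At D5 the interval lay above 0 for 12 of 20 members, beside 43% of all genes compared, and below 0 for 4, beside 27.2%. At D10 it lay above 0 for 9 of 19 members, beside 38% of all genes, and below 0 for 5, beside 30.4%. At D10, FEZF1 was at 33.1 CPM without and 56.7 CPM with XAV939, a log2 ratio of 0.78 (95% interval from 0.70 to 0.85), and ANOS1 at 52.2 and 31.5 CPM, a ratio of -0.73 (95% interval from -0.81 to -0.65). TCF12 had a ratio of 0.48 (95% interval from 0.41 to 0.55), HS6ST1 of -0.47 (95% interval from -0.58 to -0.37) and AXL of -0.47 (95% interval from -0.60 to -0.34). At D5, LEPR had 0.77 (95% interval from 0.57 to 0.96) and LEPROT, which it overlaps, 0.32. No second library of a condition shows how far such differences vary.

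Members under the 5 CPM limit are named here after their values were seen, NDNF and DCC as higher and 3 others as lower with XAV939 at D10. NDNF had 153 UMIs (1.94 CPM) without XAV939 and 375 (6.46 CPM) with it, a log2 ratio of 1.73 (95% interval from 1.46 to 2.01). DCC had 79 UMIs (1.003 CPM) and 377 (6.49 CPM), a log2 ratio of 2.69 (95% interval from 2.34 to 3.06). At a limit of 1 CPM these were the 2 members at least 2-fold higher, beside 2.21% of 13721 genes. The 5 neuron genes summed to 145 CPM at D10_dSMADi and 283 at D10_XAV939, all 5 above 0 in both, and their part in the DCC ratio was not tested. NDNF was at 6.62 CPM in dividing and 6.43 in remaining cells of D10_XAV939, and at 2.23 (interval 0.460 to 6.52) in neuron-list-high cells on 3 UMIs, an interval that overlaps theirs.

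The 3 lower ones at D10 were each below 2 CPM in both libraries. At a limit of 1 CPM, 0 of 23 members were lower, beside 2.92% of 13721 genes, so the count of these 3 has no background. MKRN3 had 115 UMIs without and 31 with XAV939, a ratio of -1.45 (95% interval from -2.07 to -0.87). AMHR2 had 59 UMIs without and 18 with XAV939, with -1.27 (95% interval from -2.12 to -0.49), and TACR3 had 26 and 5, with -1.94 (95% interval from -3.68 to -0.53). At D5, 3 members under the limit were past 2-fold and lower with XAV939, with an interval apart from 0. At a limit of 1 CPM, 0 of 23 members were higher and 0 lower at D5, beside 1.22% and 1.15% of 13233 genes. The 3 lie below that limit, where no share of all genes was taken, so their count has no background. AMHR2 had 77 and 25 UMIs, PROK2 had 97 and 40, and KISS1R had 32 and 15, with ratios of -1.74, -1.40 and -1.22.

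**Figure D3:**
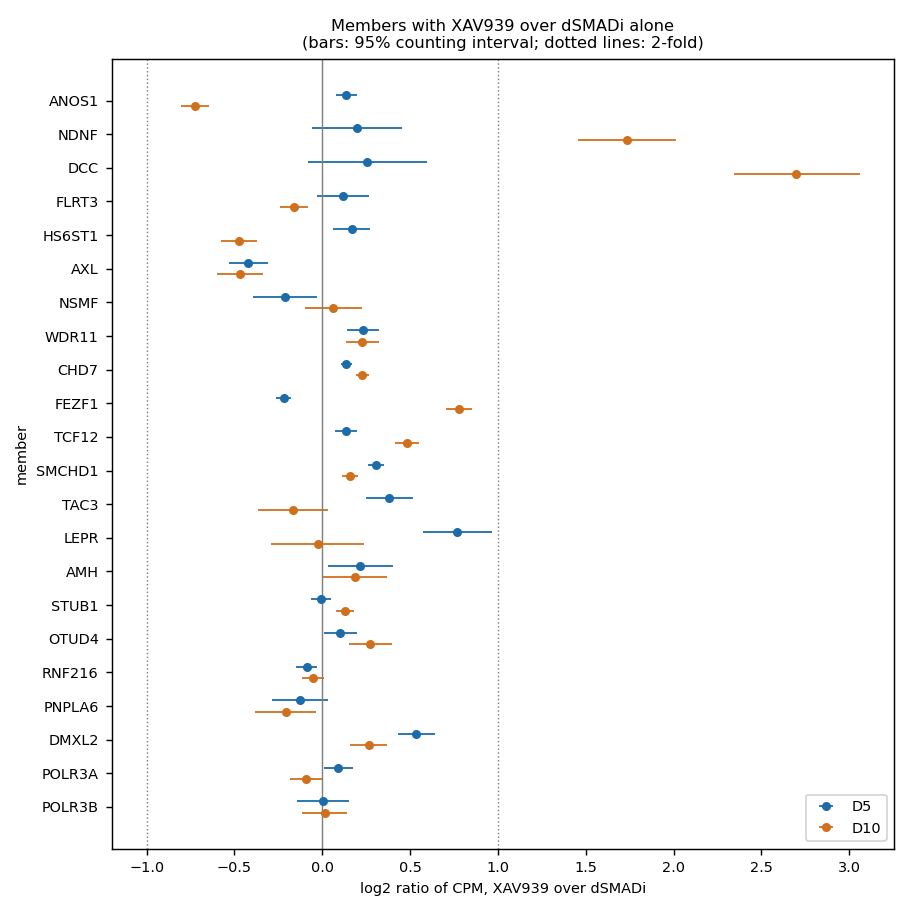
log2 ratio of CPM with XAV939 over dSMADi alone for each member compared at D5 or D10, and for NDNF and DCC, which were below the limit for comparison, with bars for the 95% counting interval and dotted lines at 2-fold. The compared members lie between -0.73 and 0.78, and DCC and NDNF at D10 lie at 2.69 and 1.73.

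GNRH1-high cells were then set against the other kept cells of the same library, which asks whether disease genes of the GnRH neuron are higher in the cells that make the hormone. GNRH1 was at 25265 CPM in GNRH1-high and 32.6 in other cells at D24, and at 30364 and 114 at D26. At D24, 0 of 18 members were higher, beside 2.22% of 9253 genes, and 3 (FEZF1, FLRT3 and OTUD4) were lower, beside 5.05%. At D26, 1 of 19 (KISS1R) was higher, beside 1.97% of 9875 genes, and 2 (FEZF1 and FLRT3) were lower, beside 2.72%. At D26 KISS1R and FEZF1, and at D24 OTUD4 and POLR3B, had 5 CPM in only 1 of the groups set side by side, so that their difference helped them past the limit, and the counts are not support for a pattern of the members. The median log2 ratio of the members was -0.41 at D24 and -0.10 at D26, beside -0.13 and -0.08 over all genes compared.

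FEZF1 was at 8.83 CPM (interval 5.82 to 12.8) in GNRH1-high and 42.4 in other cells at D24, a log2 ratio of -2.26 (95% interval from -2.87 to -1.72). At D26 it was at 1.83 CPM (interval 1.10 to 2.86) and 10.3, a log2 ratio of -2.50 (95% interval from -3.24 to -1.85). These rest on 27 and 19 UMIs in the GNRH1-high cells. FLRT3 was at 22.9 against 65.9 CPM at D24, a ratio of -1.53 (95% interval from -1.89 to -1.19), and at 27.6 against 69.2 CPM at D26, a ratio of -1.32 (95% interval from -1.499 to -1.15). Both genes were lower on both days. OTUD4 at D24 was at 2.94 against 8.51 CPM, on 9 UMIs, and at 10.5 against 10.7 at D26. Its D24 ratio was past 2-fold in 12 of 14 alternatives, the weakest being a log2 ratio of -0.34.

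KISS1R was at 5.88 CPM (interval 3.49 to 9.30) in GNRH1-high and 10.3 in other cells at D24, a log2 ratio of -0.81 (95% interval from -1.58 to -0.14), and at 8.76 CPM (interval 7.06 to 10.8) and 3.79 at D26, a ratio of 1.21 (95% interval from 0.86 to 1.55). A KISS1R UMI was found in 7.71% of GNRH1-high and 3.09% of other cells at D26, or 1.201% and 0.537% after thinning. The level in the GNRH1-high cells thus overlapped between the days within its intervals, while that of the other cells was lower at D26. Its ligand KISS1 had 0 UMIs in the GNRH1-high cells of both days, which allows up to 0.981 CPM at D24 and 0.289 at D26.

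CCDC141 was below the 5 CPM limit and is singled out after its values were seen. It had 14 UMIs in GNRH1-high and 11 in other cells at D24, or 4.58 CPM (interval 2.50 to 7.68) and 0.164, and 38 and 16 UMIs at D26, or 3.66 CPM (interval 2.59 to 5.02) and 0.180. This gave a log2 ratio of 4.80 (95% interval from 3.56 to 6.09) at D24 and 4.35 (95% interval from 3.47 to 5.29) at D26. So 14 of the 25 CCDC141 UMIs at D24 and 38 of the 54 at D26 lay in the GNRH1-high cells, which were 3.79% and 9.04% of the cells. A CCDC141 UMI was found in 3.77% and 3.40% of GNRH1-high cells, against 0.126% and 0.139% of other cells, with median depths of 8247 and 9729 against 7150 and 8401 UMIs. After thinning to 1500 UMIs the shares were 0.870% and 0.400% against 0.0342% and 0%. TTN, which overlaps CCDC141 on the same strand, was at 10.8 against 7.42 CPM at D24 and 9.73 against 8.38 at D26, so TTN differed by far less than CCDC141.

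The other members that could be compared stayed within 2-fold. DCC was at 185 against 281 CPM at D24 and 208 against 267 at D26, or log2 -0.60 (95% interval from -0.73 to -0.48) and -0.36 (95% interval from -0.43 to -0.30). CHD7 was at 145 against 129 and at 162 against 143 CPM, with ratios of 0.17 (95% interval from 0.02 to 0.30) and 0.19 (95% interval from 0.11 to 0.26). At D24 the interval lay above 0 for 1 of 18 members, CHD7, beside 9.22% of all genes, and below 0 for 10, beside 26.4%. At D26 it lay above 0 for 4 of 19, CHD7 among them, beside 15.3%, and below 0 for 6, beside 34.8%. ANOS1 had 8 and 17 UMIs in the GNRH1-high cells of D24 and D26, or 2.62 and 1.64 CPM, against 0.850 and 1.61 in the other cells. Under the limit for comparison, NDNF at D26 had 5 UMIs in GNRH1-high and 195 in other cells, or 0.482 and 2.19 CPM. This made a ratio of -2.18 (95% interval from -3.82 to -0.94) in log2. SEMA3E at D26 had 4 and 80 UMIs and a ratio of -1.22 (95% interval from -3.13 to 0.19). At D24 NDNF had 0 UMIs in GNRH1-high and 14 in other cells. NTN1, also under the limit for comparison, reached 5.39 CPM in a GNRH1-high group, and its ratio over the other cells is not given. The members named under the limit are therefore not a full account of those that were higher or lower. HS6ST1, NSMF, WDR11, TCF12, SMCHD1, AMH, STUB1, RNF216, MKRN3, DMXL2, POLR3A and POLR3B stayed within 2-fold on both days, with log2 ratios of -0.86 to 0.31. PNPLA6 was below the limit at D24, at 4.25 against 4.75 CPM, and had a ratio of -0.20 (95% interval from -0.58 to 0.15) at D26. PROK2, PROKR2, NR0B1 and AMHR2 had 0 UMIs in the GNRH1-high cells of both days.

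**Figure D4:**
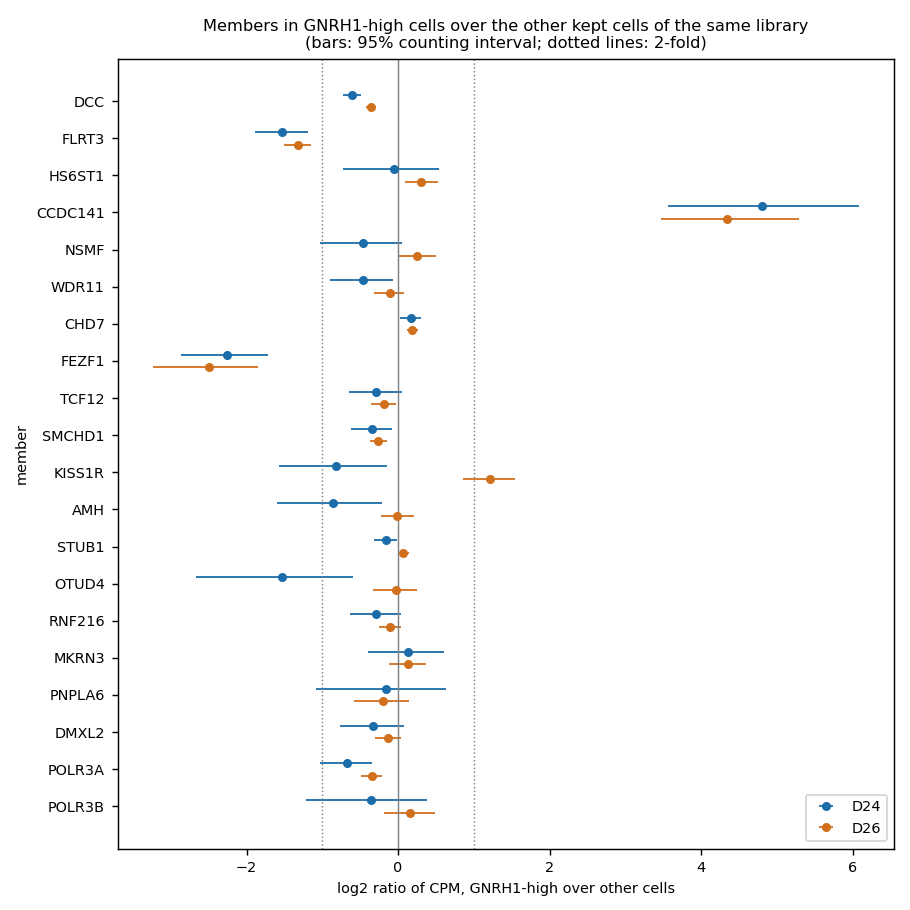
log2 ratio of CPM in GNRH1-high cells over the other kept cells of D24 and of D26 for each member compared on either day, and for CCDC141, which was below the limit for comparison, with bars for the 95% counting interval and dotted lines at 2-fold. FEZF1 and FLRT3 lie below the 2-fold line on both days, KISS1R lies on opposite sides of 0, and CCDC141 lies at 4.80 and 4.35.

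Along ranges of GNRH1 per cell FEZF1, FLRT3 and CCDC141 took intermediate values. From cells without GNRH1 through those under 1000, 1000 to 3000, 3000 to 10000 and 10000 CPM or more, FEZF1 at D26 went through 11.1, 9.53, 4.91, 1.99 and 1.78 CPM. FLRT3 at D26 went through 70.4, 68.8, 46.4, 43.4 and 22.6 CPM. CCDC141 at D26 went through 0.134, 0.203, 0.892, 1.99 and 4.19 CPM. At D24 the course was not even, with 16.8 CPM of FEZF1 at 1000 to 3000 CPM of GNRH1 and 18.9 at 3000 to 10000, and CCDC141 had 1 UMI in each of these ranges. Within 20% below the 3000 limit lay 8 cells at D24 and 41 at D26, and within 25% above it 10 and 43.

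**Figure D5:**
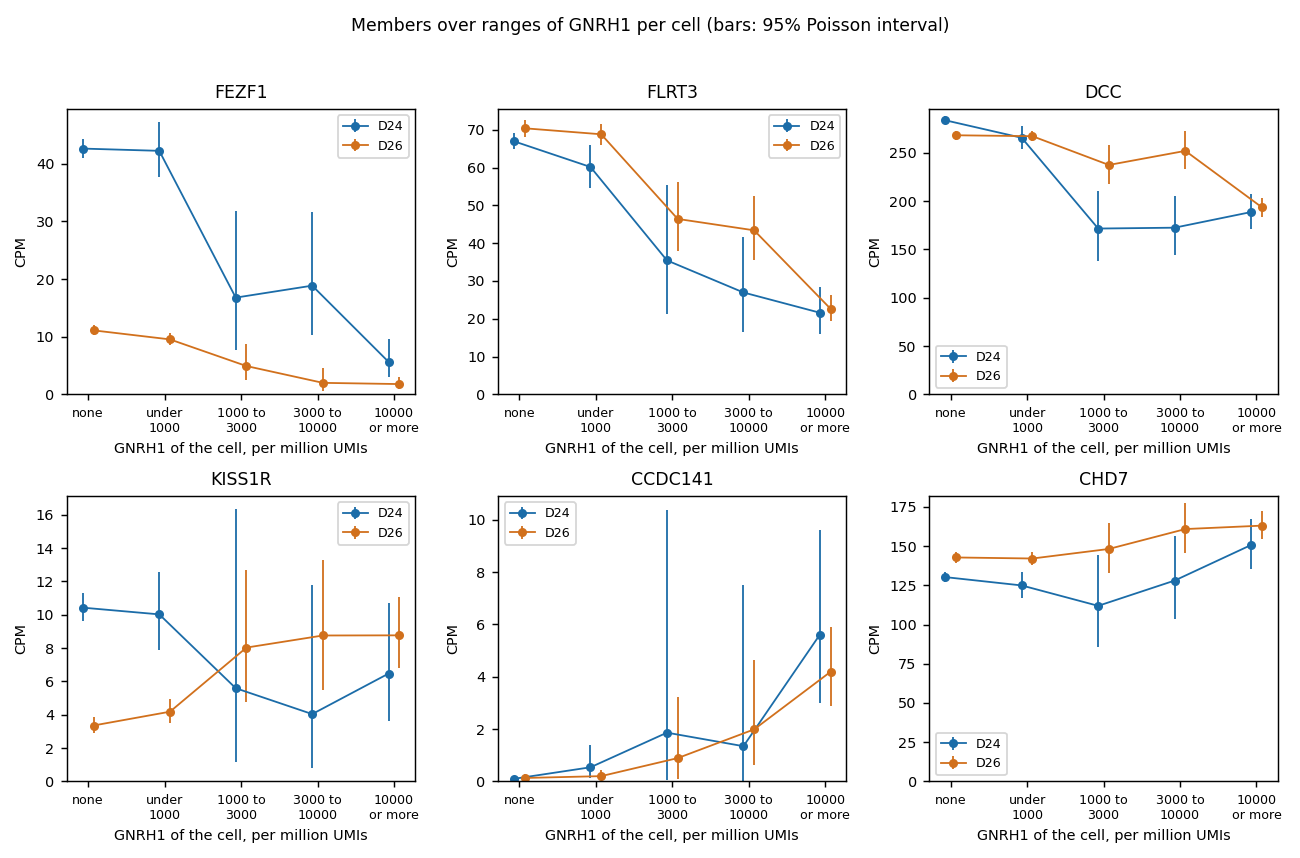
Level in CPM of 6 members in 5 ranges of GNRH1 per cell at D24 and D26, on linear axes from 0, with bars for the 95% Poisson interval. FEZF1 and FLRT3 are lowest and CCDC141 is highest in the range with the most GNRH1 on both days, and KISS1R goes from 3.36 to 8.77 CPM at D26.

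GNRH1-high cells also differed from the other cells in lineage markers. The 5 DLX genes summed to 848 CPM in GNRH1-high and 31.5 in other cells at D24, and to 940.01 and 120.5 at D26. The 5 glutamatergic genes, TBR1 and PPP1R17 among them, summed to 133 and 945 CPM at D24, and to 222 and 1058 at D26. All genes of both lists were above 0 in all 4 groups. The 5 neural progenitor genes, SOX2 among them, summed to 338 and 85.3 CPM at D24, and to 330 and 211 at D26. The 4 neuronal precursor genes summed to 11.4 and 86.5 CPM at D24, and to 5.59 and 8.29 at D26. The 5 dividing-cell genes summed to 8.83 and 58.4 CPM at D24, and to 5.01 and 15.3 at D26. The 5 mesenchyme genes summed to at most 2.07 CPM and the 6 glia genes to at most 3.27 CPM in these groups. Scrublet scores of at least 0.25 marked 8.70% of GNRH1-high cells at D24 and 13.3% at D26 as possible doublets, against 6.79% and 7.46% of all kept cells. Without the marked cells the log2 ratios were -2.76 and -4.04 for FEZF1, -0.73 and 1.35 for KISS1R and 4.83 and 4.33 for CCDC141 at D24 and D26.

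The DLX-high cells below the GNRH1 limit (at least 1000 CPM of the 5 DLX genes, 98 cells at D24 and 502 at D26) were closer to the GNRH1-high cells for the members that moved. FEZF1 was at 6.21 CPM in DLX-high and 33.6 in TBR1/PPP1R17-high cells at D24, and at 1.14 and 8.79 at D26. FLRT3 was at 13.7 and 65.1 CPM at D24, and at 38.7 and 68.1 at D26. CCDC141 had 4 and 11 UMIs in DLX-high cells, or 4.97 and 2.51 CPM, and 0 UMIs in the 1621 and 2704 TBR1/PPP1R17-high cells. KISS1R at D26 was at 7.52 CPM in DLX-high and 3.14 in TBR1/PPP1R17-high cells.

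Set against the DLX-high cells instead of all other cells, the log2 ratio of FEZF1 was 0.51 at D24 and 0.68 at D26, that of FLRT3 0.74 and -0.49, that of KISS1R 0.66 and 0.22, and that of CCDC141 -0.12 and 0.55. The DLX-high cells held 805300 UMIs of all genes at D24 and 4388939 at D26. FEZF1 on both days, and FLRT3 and KISS1R at D24, therefore rest on few UMIs in them, and no intervals are given for these ratios. At D24, 0 of the 17 members compared with DLX-high cells were higher, beside 3.66% of all genes, and 5 were lower, beside 4.66%. In 3 of the 17, 5 CPM was reached in only 1 of the groups. TAC3 and POLR3B, both lower, reached it in the DLX-high cells alone, so that their difference helped them past the limit. The counts are not support for a pattern of the members. At D26, 0 of 19 were higher, beside 0.676%, and 0 lower, beside 0.543%. The DLX-high cells, which lie below the GNRH1 limit, were therefore also low in FEZF1, on few UMIs. Whether they were lower in it than the GNRH1-high cells, and the part of the DLX lineage in these results, was not tested. TAC3 was found in DLX-high cells at 11.2 CPM (9 UMIs) at D24 and 2.28 (10 UMIs) at D26, against 0.981 and 0.289 CPM in GNRH1-high cells. The UMIs of TAC3 are few, and it is named after its values were seen.

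A second list of 22 other genes reported in hypogonadotropic hypogonadism, among them FGF ligands and receptors, semaphorins, plexins and SOX factors, was counted in the same way. From D22 to D24, 2 of its 16 compared genes were higher, beside 9.7% of all genes, and 7 (43.8%) were lower, beside 12.3%. Of the 7, GLI2, FGF17 and GLI3 reached 5 CPM at D22 alone, so that their difference helped them past the limit. The 4 largest ratios were those of GLI2 (10.8 to 0.299 CPM), FGF17 (12.8 to 0.527), GLI3 (40.6 to 1.88) and SOX2 (224 to 17.2), genes of Hedgehog and FGF signalling and of progenitor cells. In GNRH1-high cells, 2 were higher and 2 lower of 11 at D24, beside 2.22% and 5.05% of all genes, and 2 and 2 of 12 at D26, beside 1.97% and 2.72% of all genes. SOX2 was at 108 against 13.1 CPM at D24 and 26.1 against 8.82 at D26, and DUSP6, an inhibitor of FGF signalling, at 29.4 against 6.86 and 25.1 against 11.2. The prohormone convertase PCSK1 was at 13.7 against 48.2 and 34.0 against 130.1 CPM, and the synaptic scaffold DLG2 at 9.48 against 25.2 and 34.4 against 92.9.

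In the early steps the second list had 4 genes higher and 3 lower of 16 from D0 to D5_dSMADi, beside 8.08% and 16.4% of all genes, and FGF8, PLXNA3 and SPRY4 among them reached 5 CPM in only 1 of the libraries. It had 3 higher and 1 lower of 15 from D5_dSMADi to D10_dSMADi, beside 5.09% and 1.42% of all genes, and 1 higher and 2 lower of 17 from D5_XAV939 to D10_XAV939, beside 4.11% and 1.31% of all genes, and HESX1, lower in both, reached 5 CPM at D5 alone. FGF8 went from 1.05 to 13.3 CPM and SPRY4, a feedback inhibitor of FGF signalling, from 36.2 to 2.67 between D0 and D5_dSMADi. HESX1, a repressor of the early forebrain, went from 37.5 to 1.94 CPM and SOX3 from 33.3 to 170.2 between D5_dSMADi and D10_dSMADi. With XAV939, 1 of 16 (DUSP6, 11.6 to 26.04 CPM) was higher at D5, beside 0.622% of all genes, and 2 of 15 were lower at D10, beside 1.46%, SOX3 (170.2 to 69.7 CPM) and DUSP6 (18.2 to 8.82). From D24 to D26, 3 of 12 were higher and 0 lower, beside 7.34% and 2.04% of all genes, and DLG2 went from 24.5 to 86.8 CPM.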

How the data were processed

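The authors sequenced WA09 cells of 8 conditions with 10x Genomics droplets, 5 of them as 1 tagged pool, aligned the reads to GRCh38 and deposited UMI counts per gene and barcode, without normalization. Per the file headers, Cell Ranger 3.1.0 was used for D22 to D26 and Cell Ranger 6.1.2 for the tagged pool. The deposited tables hold barcodes that the authors had called as cells and, for the pool, assigned to a tag, 1292 to 12171 per library. Barcodes were kept by the study's stated limits for each library: at least 30000 UMIs and 5000 genes at D0, 10000 and 3000 at D5 and D10, and 1500 and 1000 at D22 to D26, a mitochondrial share under 10% (20% at D22 to D26), and a complexity (log genes over log UMIs) above 0.78 at D5, between 0.82 and 0.9 at D10 and above 0.82 later. The stated complexity limit for D0 left nearly no cell, so D0 was filtered without it. A limit of 0.78 for D0, chosen after seeing the data, was an alternative.

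UMIs were summed over kept cells and scaled to CPM with Python 3.11.15, numpy 2.4.6, pandas 2.3.3 and scipy 1.17.1. Levels carry exact Poisson intervals, ratios an exact binomial interval from how their UMIs divide, and shares of cells Clopper-Pearson intervals, all at 95% and for counting error only. A count of 0 was given the limit of 3 counts. Shares were also taken after thinning each cell to 1500 UMIs (10000 at D0 to D10). UMIs of a gene were treated as independent draws, and a gene carried by few cells has wider error than its interval. Doublets were scored with Scrublet in scanpy 1.11.5 and stayed in, since its automatic limit marked 1 cell of D24 and 0 of D26, and a score of 0.25 was used for an alternative. Classes were assigned in the order GNRH1-high, DLX-high, TBR1/PPP1R17-high, each a range of summed markers per cell. Gene positions are from GENCODE 44 on GRCh38 and promoter windows from RefSeq. Ratio code was tested on simulated data.

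The members, gene lists and rules were chosen with earlier results of these data known. By rule, members with at least 5 CPM in 1 library or GNRH1-high group have their level in every library, the others their highest level or UMI counts, and up to 4 genes of the second list are named per comparison. Other cell filters, scalings, limits on low values, GNRH1 limits and comparison cells were tried.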

Additional observations from a re-analysis of the deposited data

Results flagged for a closer look

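KISS1R, ANOS1, HS6ST1, FEZF1 and TCF12 had log2 ratios of opposite sign in 2 settings of the same contrast, with both intervals apart from 0. The differences between the settings were not tested, since each setting is 1 library per condition. KISS1R in GNRH1-high over other cells was -0.81 at D24 and 1.21 at D26, and against DLX-high cells 0.66, on few UMIs in the DLX-high cells of D24, and 0.22. With XAV939 over dSMADi, ANOS1 was 0.14 at D5 and -0.73 at D10, HS6ST1 was 0.17 and -0.47, and FEZF1 was -0.22 and 0.78. From D5 to D10, TCF12 was -0.19 without and 0.15 with XAV939. The last of these was -0.02 with totals that left out mitochondrial and ribosomal genes, so its sign depends on the scaling.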

How the results depend on the processing

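With a complexity limit of 0.78 at D0, 3 of 18 members were higher at D5_dSMADi, beside 8% of all genes (DMXL2 was no longer past 2-fold), and 3 were lower, beside 16.3%. No paired analysis was possible because each condition is 1 library and no test was made, and for the same reason no library could be left out. Among counts of members recomputed under alternatives, 157 stayed within 1.5 times and 27 did not. Among ratios of single members, 1598 moved by less than their counting interval, 233 moved further, and 3 that had been past 2-fold changed sign. The other limits on CPM, and the stricter cell filter at D0 to D10, cannot move a ratio and are counted in the 1598. Within the 1598 and the 233, 76 ratios that were not past 2-fold by rule changed sign. Of these, 23 had an interval apart from 0 in the main setting, 5 of them changing against DLX-high cells. Whether the changed value was itself apart from 0 was not counted. The 3 past 2-fold changed against DLX-high cells: FEZF1 to 0.51 at D24 and 0.68 at D26, and FLRT3 to 0.74 at D24. The 5 were, at D24, KISS1R (0.66), CCDC141 (-0.12, below the limit for comparison in the main setting), DCC (0.15) and STUB1 (0.43), and, at D26, CHD7 (-0.11). FEZF1 on both days, and FLRT3, KISS1R and CCDC141 at D24, rest on few UMIs in the DLX-high cells. Against these cells 5 of 17 members were lower at D24 (POLR3A, TAC3, POLR3B, TCF12 and AMH, beside 4.66% of all genes), and 0 were higher and 0 lower at D26. TAC3 and POLR3B reached 5 CPM in the DLX-high cells alone, so that their difference helped them past the limit.

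In the following counts, each is given of the members compared under that setting, with the share of all genes called in the same setting and direction in parentheses. From D0 to D5_dSMADi, 1 of 18 was lower with median ratio scaling (12.9%), 1 of 19 with totals without mitochondrial and ribosomal genes (13.5%), 5 of 25 at a limit of 1 CPM (20.4%) and 1 of 10 at 20 CPM (13%), where 1 was higher (6.47%). From D5_XAV939 to D10_XAV939, 1 of 20 was lower without a cell filter (1.27%), 1 of 20 with the mean of per-cell CPM (1.29%), 0 of 12 at 20 CPM (0.853%) and 0 of 20 in thinned cells (1.35%), and 2 were higher, DCC among them, of 22 without mitochondrial and ribosomal genes (3.41%) and of 24 at 1 CPM (6.38%). At D10 with XAV939, 1 of 20 (NDNF) was higher without mitochondrial and ribosomal genes (1.3%) and 2 of 23 at 1 CPM (2.21%). From D22 to D24, 1 of 19 (DCC) was higher with median ratio scaling (10.1%) and 3 of 10 were lower at 20 CPM (9.67%). From D24 to D26, 0 of 19 were higher with median ratio scaling (3.65%), 0 of 20 without mitochondrial and ribosomal genes (5.53%), 2 of 23 at 1 CPM (8.82%) and 0 of 11 at 20 CPM (5.09%), where 1 was lower (1.45%). In GNRH1-high cells at 1 CPM, 2 of 23 were higher at D24 (CCDC141 and ANOS1, 3.54%) and 2 of 24 at D26 (CCDC141 and KISS1R, 2.7%), of which CCDC141 and ANOS1 reached 1 CPM in the GNRH1-high cells alone, and at 20 CPM 0 of 10 were higher (1.43%) and 1 lower (2.15%) at D26. These limits on CPM change which members are compared. The cause of the other changes was not tested. HS6ST1 from D24 to D26 was past 2-fold in 7 of 9 alternatives, and ANOS1, NSMF and DMXL2 from D0 to D5_dSMADi in 8 of 10. Such tallies also count the alternatives that cannot move a ratio. FEZF1 was past 2-fold in all alternatives run for the 4 steps in time that called it, and in 13 of 14 for the GNRH1-high cells of each day, the exception being the DLX-high cells.

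Depth limits the lowest members: 3 UMIs amount to 0.981 CPM in the GNRH1-high cells of D24 and 0.289 CPM in those of D26.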
